A study of Homo sapiens with 16 samples.

Results

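The comparison described here set HCT116 cells with intact p53 treated with Nutlin-3A and Entinostat together against the same cells treated with the vehicle, DMSO. It took 4 of the 16 libraries of the series, chosen by title: 2 of the combination and 2 of DMSO, each after 8 h. HCT116 is an established human colorectal cancer cell line, and the study used it in a p53+/+ and a p53-/- form, with no word in the labels on how the p53-/- form was made or from how many clones. Nutlin-3A alone was given at 5 µM and Entinostat alone at 2.5 µM, while the labels give no separate doses for the drugs inside the combination. The groups set beside the comparison were p53+/+ cells given Nutlin-3A alone or Entinostat alone, and p53-/- cells given the combination or DMSO, with 2 libraries each. All groups were grown in the same medium with serum and antibiotics, and the labels do not say whether replicates came from separate cultures. The p-values therefore measure the spread between these libraries, which may be technical.

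Nutlin-3A occupies the pocket of MDM2 that binds p53. MDM2 normally marks p53 for destruction, so p53 accumulates when the pocket is filled and switches on genes for cell cycle arrest, DNA repair and apoptosis, MDM2 itself among them. Entinostat inhibits class I histone deacetylases, enzymes that remove acetyl groups from histone tails within repressor complexes. The series is titled for FLIP(L) and p53 activation, FLIP(L) being the long protein form of CFLAR that restrains caspase-8 below the death receptors.

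Levels are given as RPKM, read counts scaled to gene length and to the mapped reads of the library, as deposited. A fold is the ratio of mean RPKM, and a log2 change is the difference of the mean log2(RPKM + 0.5), which is smaller than the log2 of the fold where RPKM are low. Of 20612 genes, the 12466 that averaged 0.5 RPKM or more across the 16 libraries were tested. A call means a limma adjusted p under 0.05, over all tested genes, and "rose" and "fell" are used only of called genes. Alignments ran from 45902800 to 55507300 per library, and the median absolute log2 difference between replicates was 0.203 for the combination and 0.113 for DMSO in p53+/+ cells. The first replicate of the combination stood apart: its 10 strongest genes held 9.15% of its summed RPKM, against 6.21% to 7.79% in the other 15 libraries. Results that rest on it are given without it as well.

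Both drugs together changed the level of 6236 tested genes, 50.0% of all. Of these, 2895 rose (23.2% of tested genes) and 3341 fell (26.8%), while 703 rose at least 2-fold on the log2 scale (5.64%) and 369 fell by as much (2.96%). Without the first combination library 4144 genes were called. The balance of rises and falls depended on the filter and scaling: without the level filter 3969 rose and 3203 fell, and with median of ratios scaling 3090 rose and 3125 fell. The median log2 change of all tested genes was -0.03. The plot of the change of each gene against its mean level shows the largest rises far above the largest falls. However, the added 0.5 RPKM and the starting level limit how far a gene can fall. Genes near 0 with DMSO could also pass the level filter through the treated libraries. No difference in strength between rises and falls is read from these extremes or from the 2-fold counts.

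**Figure D1:**
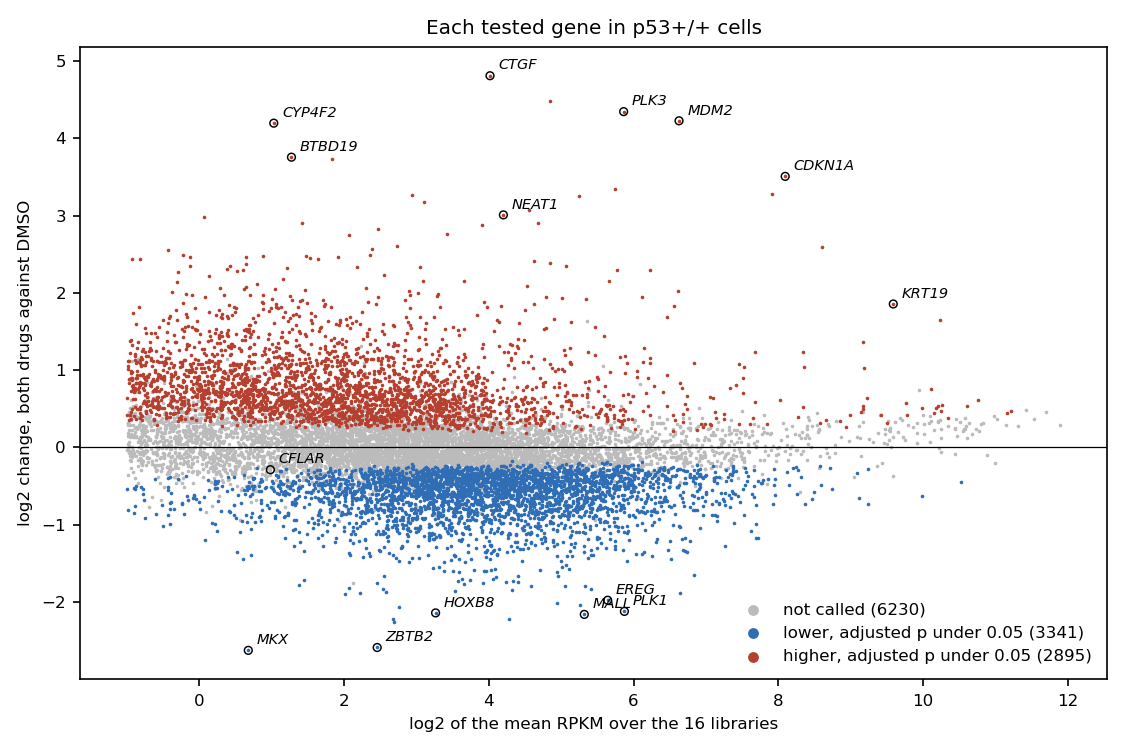
Each point is 1 of the 12466 tested genes, placed by the log2 of its mean RPKM over the 16 libraries (horizontal axis) and its log2 change between the combination and DMSO in p53+/+ cells (vertical axis); red points rose, blue points fell and grey points were not called. CTGF, PLK3, MDM2 and CYP4F2 passed 4 on the log2 scale, while the largest fall (MKX) was -2.63.

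The polo-like kinase PLK3, a stress-responsive kinase, was among the most strongly induced genes. PLK3 was at 14.8 and 11.97 RPKM with DMSO and at 446 and 176 with the combination, 23.3-fold higher (log2 change 4.35 ± 0.36 SE, limma adjusted p = 1.1e-05). Its groups did not overlap, and its combination libraries differed from each other by more than its DMSO libraries did. Nutlin-3A alone gave 70.3 and 50.6 RPKM and Entinostat alone 22.4 and 15.7, so the lower combination library still stood above every single-drug library. The other polo-like kinases moved unlike each other: PLK2, a p53 target, rose (12.05 and 11.4 to 57.5 and 37.4 RPKM, log2 change 1.94, adjusted p = 0.00012), while PLK1, which drives mitotic entry, and PLK4, which licenses centriole duplication, fell (log2 changes -2.12 and -1.49).

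CTGF, a secreted matrix protein and a standard target of YAP and TEAD, had the largest log2 change of all. CTGF went from 0.791 and 1.07 RPKM with DMSO to 72.5 and 21.3 with the combination, 50.5-fold (log2 change 4.81 ± 0.66 SE, limma adjusted p = 0.00019). Both combination libraries lay far above DMSO, and the first was above the second. Nutlin-3A alone left it at 1.803 and 1.198 RPKM and Entinostat alone at 16.9 and 7.39, and the difference from Entinostat alone was not called (log2 1.77, adjusted p = 0.094), though it was in a fit blocked on the replicate number, the replicate block (adjusted p = 0.0083). Its neighbour in function CYR61, another secreted YAP target, was at 10.1 and 9.85 and then 80.3 and 36.4 RPKM (log2 change 2.38, adjusted p = 0.00076). Over the list of 15 tested YAP and TEAD targets, 7 rose and 2 fell (F3 and TEAD4), beside 23.2% and 26.8% of all tested genes. The call of F3 was lost without the first combination library or the second DMSO library. Nothing is read from these counts about the list as a whole.

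MDM2, the ubiquitin ligase that p53 induces and that in turn restrains p53, gave the most uniform response of the 3. It measured 20.4 and 19.97 RPKM with DMSO and 368 and 406 with the combination, 19.2-fold higher (log2 change 4.23 ± 0.12 SE, limma adjusted p = 1.2e-09). Replicates lay close together in both groups. With Nutlin-3A alone MDM2 reached 328 and 268 RPKM and with Entinostat alone 16.5 and 18.8. The combination exceeded Nutlin-3A by 0.38 on the log2 scale (adjusted p = 0.025), a call that was lost without either combination library or without the second Nutlin-3A library.

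**Figure D2:**
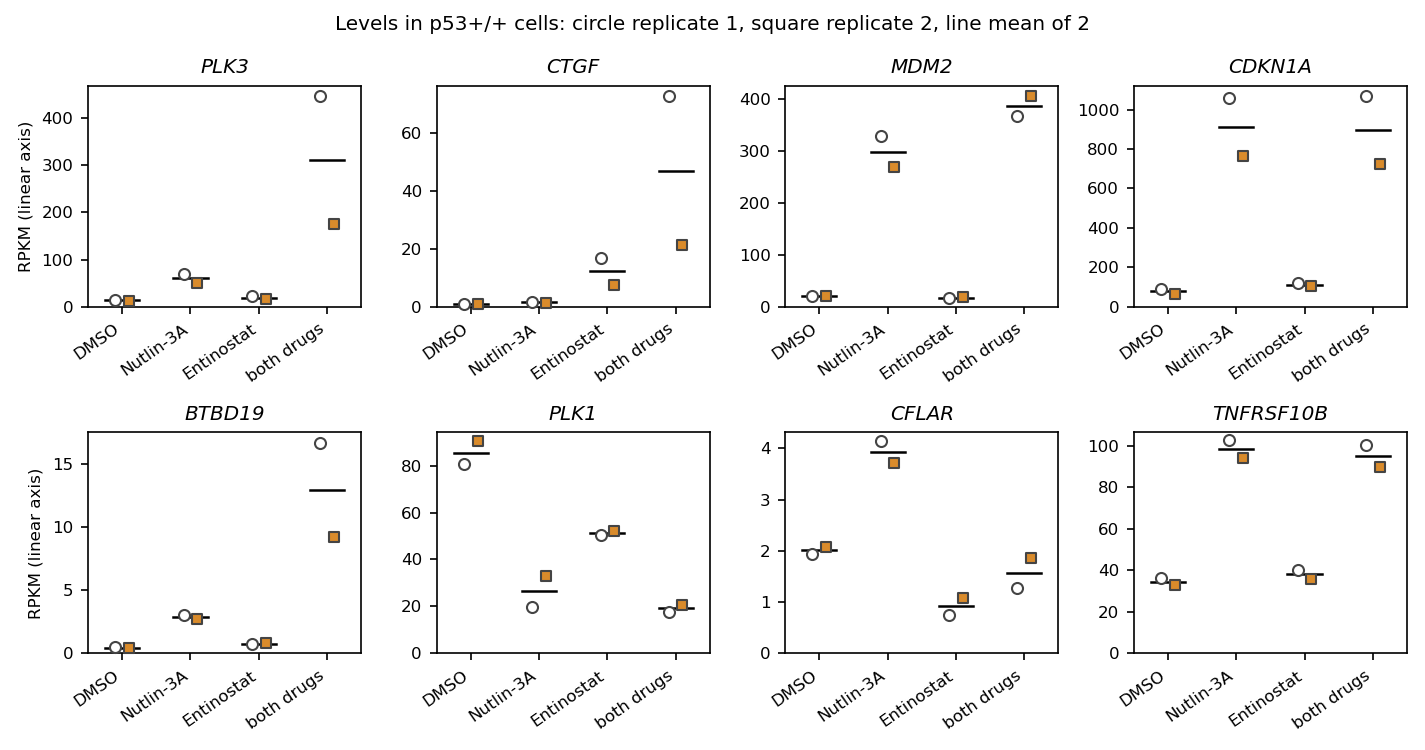
RPKM (vertical axis, linear, from 0) in the p53+/+ libraries by treatment for 8 genes; the circle is replicate 1, the square replicate 2 and the line their mean. PLK3, CTGF and BTBD19 are highest with both drugs, MDM2 and CDKN1A are high wherever Nutlin-3A was given, PLK1 is low with both drugs and with Nutlin-3A alone, and CFLAR is highest with Nutlin-3A alone.

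Other genes among the 15 largest rises had varied functions. The fatty acid hydroxylase CYP4F2 was near 0 with DMSO, at 0.204 and 0.0495 RPKM, and at 18.9 and 6.19 with the combination (log2 change 4.20, adjusted p = 4.3e-05). BTBD19, which carries a BTB domain, rose from 0.482 and 0.429 to 16.7 and 9.18 RPKM (log2 change 3.76, adjusted p = 1.9e-06). In both genes the first combination library was the higher one, and neither overlapped with DMSO. Genes of neurons and secretory granules were there too: CEND1, linked to cell cycle exit in neurons, reached 15.9 and 4.36 RPKM from 0.153 and 0.193, and VGF, the precursor of secreted neuropeptides, reached 212 and 74.3 from 12.02 and 11.7 (log2 changes 3.73 and 3.35, adjusted p = 0.00073 and 0.00046). The stress cytokine GDF15 rose from 115 and 68.2 to 1107 and 669.8 RPKM, and the water and glycerol channel AQP3 from 3.02 and 1.36 to 36.3 and 15.9 (adjusted p = 3.8e-05 and 0.00026). The long noncoding RNA NEAT1, the scaffold of nuclear paraspeckles, rose 8.56-fold, from 6.76 and 7.27 to 57.0 and 63.1 RPKM (log2 change 3.01, adjusted p = 6.1e-06). Its level lay at 12.01 and 19.96 with Nutlin-3A alone and 25.1 and 31.9 with Entinostat alone, below both combination libraries. Unlike CTGF and VGF, NEAT1 had close replicates in the combination.

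The 15 largest falls joined regulators of transcription and development with mitotic genes. MKX, the homeobox factor Mohawk of tendon development, fell from 4.604 and 5.59 to 0.264 and 0.567 RPKM, 12.3-fold lower (log2 change -2.63 ± 0.21 SE, limma adjusted p = 8.3e-06). ZBTB2, a zinc finger repressor, fell from 6.502 and 8.07 to 0.489 and 1.17 RPKM (8.77-fold lower, adjusted p = 0.00012), and the cyclic AMP phosphodiesterase PDE4B from 8.23 and 8.61 to 0.901 and 1.97 (5.86-fold lower, adjusted p = 0.0011). For these 3 genes the first combination library was the lower one and neither reached the DMSO range. The homeobox gene HOXB8 (15.8 and 16.1 to 2.59 and 4.002 RPKM), the antisense transcript HOXA10-AS (8.09 and 13.1 to 1.26 and 2.56) and the membrane protein MALL (51.6 and 59.6 to 7.92 and 18.1) fell with log2 changes of -2.14, -2.22 and -2.16. The sources used here do not say whether the counting used strand, so reads of HOXA10-AS cannot be separated from those of the genes it overlaps. The EGFR ligand EREG fell from 78.8 and 74.7 to 15.2 and 23.9 RPKM (log2 change -1.98, adjusted p = 0.00011), whereas the related ligand AREG rose from 45.1 and 41.6 to 206 and 117 (log2 change 1.83, adjusted p = 0.00098). PCDH7, a protocadherin, and JADE2, a subunit of histone acetyltransferase complexes, fell by 1.90 and 1.89 on the log2 scale. The other 6 were the mitotic and cell cycle genes PLK1, CCNA2, CCNB1, AURKA, E2F8 and ARHGAP11A, at log2 changes from -2.22 to -1.88.

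In each of the lists of direct p53 targets most tested members rose, beside 23.2% of all tested genes that rose and 26.8% that fell. CDKN1A, which encodes the cyclin-dependent kinase inhibitor p21, was at 89.2 and 66.1 RPKM with DMSO and 1069 and 722 with the combination, 11.5-fold higher (log2 change 3.51 ± 0.37 SE, limma adjusted p = 4.5e-05). Both combination libraries stood well above DMSO, and those of Nutlin-3A alone lay between them at 1059 and 763 RPKM. Among the 8 tested arrest genes 7 rose and none fell, with a median log2 change of 1.75 against -0.03 for all genes. These included the antiproliferative factor BTG2 (12.2 and 10.2 to 90.8 and 83.3 RPKM, log2 change 2.91) and GADD45A, which answers DNA damage (28.2 and 22.1 to 84.9 and 64.9, log2 change 1.55). Of 10 feedback regulators of p53, 7 rose and 2 fell (median 0.54), RCHY1 and RFWD2. TP53INP1, a nuclear cofactor of p53, rose 10.2-fold from 3.74 and 2.42 to 33.6 and 29.2 RPKM, and PPM1D, the phosphatase that dampens p53 signalling, 3.84-fold from 10.99 and 10.4 to 47.6 and 34.6. RCHY1 and RFWD2 are ubiquitin ligases for p53 (RCHY1: log2 change -0.83, adjusted p = 0.0028), and MDM4, the partner of MDM2, was not called (log2 change -0.17, adjusted p = 0.64).

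Apoptosis genes downstream of p53 rose in 13 of 17 cases, with none lower (median 0.85). Beside the list counts in this paragraph, 23.2% of all tested genes rose and 26.8% fell. TP53I3, an oxidoreductase, rose 8.97-fold, from 6.73 and 5.21 to 58.6 and 48.4 RPKM (log2 change 3.07, limma adjusted p = 2.2e-06). The BH3-only activator BBC3 (PUMA) rose from 8.601 and 5.23 to 31.4 and 19.9 RPKM and PMAIP1 (NOXA) from 19.8 and 18.3 to 62.95 and 56.4 (log2 changes 1.82 and 1.62). BAX, which permeabilises mitochondria, rose less, from 26.2 and 24.5 to 34.7 and 38.4 RPKM (log2 change 0.52, adjusted p = 0.0014). The nuclease AEN was not called (log2 change 0.16, adjusted p = 0.14). In the list for DNA repair and nucleotide supply 4 of 6 rose (median 1.13), among them the nucleotide excision repair genes DDB2 (26.04 and 21.8 to 90.4 and 64.5 RPKM) and XPC (16.6 and 14.3 to 42.8 and 36.9) and the ribonucleotide reductase subunit RRM2B (14.2 and 12.04 to 30.1 and 36.8). Metabolic and mTOR-restraining targets rose in 8 of 11 cases (median 0.97) with SCO2 lower, a call lost without 3 of the 4 libraries in turn, including FDXR, a mitochondrial reductase (33.1 and 29.3 to 186 and 129 RPKM), SESN1 (4.49 and 3.56 to 15.97 and 16.9) and DDIT4 (72.9 and 33.2 to 279 and 212). Of 11 secreted and membrane targets 10 rose (median 1.28), with the serpin SERPINB5 (11.4 and 9.71 to 112 and 96.7 RPKM) and the tetraspanin CD82 (3.91 and 2.82 to 23.2 and 15.3) behind GDF15. The exception was KITLG, the ligand of the receptor KIT, which fell from 123 and 118 to 34.2 and 66.8 RPKM (log2 change -1.32, adjusted p = 0.0079), a call lost without the first combination library. These lists were chosen with results of these libraries known, so their direction is a description.

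Death receptor genes did not move one way. The list of 24 receptors, adaptors, caspases and inhibitors held 9 that rose and 8 that fell (median 0.01), and 4 fell without the first DMSO library and 5 without the second or without the first combination library, beside the 23.2% of all tested genes that rose and 26.8% that fell. TNFRSF10B, the TRAIL receptor DR5, was at 36.4 and 32.7 RPKM with DMSO and 101 and 89.7 with the combination, 2.75-fold higher (log2 change 1.45 ± 0.10 SE, limma adjusted p = 6.1e-06). Nutlin-3A alone gave 103 and 94.3 RPKM and Entinostat alone 40.2 and 35.8, so the combination overlapped with the first and stood clear of the second. The decoy receptors TNFRSF10C (0.751 and 0.711 to 4.06 and 3.62 RPKM) and TNFRSF10D (18.2 and 15.7 to 56.9 and 43.3) rose by 1.82 and 1.53 on the log2 scale, while the death-inducing TNFRSF10A rose by 0.32 (17.9 and 18.6 to 23.2 and 22.6 RPKM, adjusted p = 0.034). FAS, another death receptor, was at 4.43 and 3.15 with DMSO and 4.86 and 8.05 with the combination (log2 change 0.67, adjusted p = 0.021), and it lost its call without the second library of either group. The call of TNFRSF10A was lost without each of the 4 libraries in turn. The inhibitor of apoptosis BIRC3 rose from 0.506 and 0.718 to 3.02 and 3.17 RPKM (log2 change 1.70), and the adaptor TRAF2 and the caspase inhibitor XIAP fell by 0.69 and 0.70, XIAP with its call lost without 3 of the 4 libraries in turn (the second combination library being the exception).

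CFLAR measured 1.94 and 2.07 RPKM with DMSO and 1.28 and 1.87 with the combination, and the difference was not called (log2 change -0.29 ± 0.17 SE, limma adjusted p = 0.17). Nutlin-3A alone held CFLAR at 4.14 and 3.71 RPKM and Entinostat alone at 0.754 and 1.08. The log2 difference of the combination from Nutlin-3A alone was -1.11 (adjusted p = 0.00095), without overlap. Against Entinostat alone it was higher by 0.54 (adjusted p = 0.048), a call lost without the second combination library or either Entinostat library. The table counts the gene as a whole and does not separate FLIP(L) from the shorter form. CASP8, its partner, was at 7.78 and 8.098 and then 4.73 and 6.65 RPKM (log2 change -0.46, adjusted p = 0.097, and 0.0085 with the replicate block).

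Within the BCL2 family, 6 of 11 members that promote apoptosis rose and 3 fell (median 0.52). None of 5 that restrain it rose, while BCL2L2 and BCL2L12 fell, BCL2L2 with its call lost without the first combination library. Beside these small counts, 23.2% of all tested genes rose and 26.8% fell, and no shift of the family is read from them. BMF, a BH3-only protein, rose from 0.1498 and 0.0914 to 1.703 and 1.21 RPKM (12.1-fold) and was at 1.77 and 1.18 with Entinostat alone. BIK rose from 11.6 and 9.83 to 23.7 and 18.1, beside 22.8 and 18.4 with Nutlin-3A alone, whereas BID, which caspase-8 cleaves, fell from 18.3 and 18.02 to 10.8 and 12.3 (log2 change -0.63, adjusted p = 0.00079). Of the survival genes, MCL1 was at 46.3 and 44.3 RPKM with DMSO and 51.2 and 52.6 with the combination, BCL2L1 at 48.4 and 60.03 and then 47.1 and 53.6, and neither was called (adjusted p = 0.065 and 0.58), though MCL1 was higher with the replicate block (adjusted p = 0.027).

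Genes of cell division fell nearly throughout. Of 36 tested genes for G2/M, mitosis and mitotic exit, 35 fell and none rose, with a median log2 change of -1.25 against a background of 26.8% of all tested genes that fell. PLK1 was at 80.6 and 90.5 RPKM with DMSO and 17.8 and 20.8 with the combination, 4.44-fold lower (log2 change -2.12 ± 0.17 SE, limma adjusted p = 9.6e-06). Cyclin B1 (CCNB1) fell from 136 and 145 to 32.4 and 43.9 RPKM (adjusted p = 6.5e-06), the centromere chaperone HJURP from 25.8 and 30.3 to 5.64 and 10.5 (adjusted p = 0.00022) and the spindle checkpoint kinase BUB1B from 44.1 and 43.7 to 10.1 and 15.05 (adjusted p = 1.8e-05). No combination library of these 4 genes reached the DMSO range. The transcription factor FOXM1, which drives many of them, fell from 33.7 and 38.7 to 9.56 and 14.3 RPKM (log2 change -1.58). CDK1, the mitotic kinase, was in the cyclin and kinase list and was not called, at 46.1 and 45.4 RPKM with DMSO and 31.7 and 46.4 with the combination (log2 change -0.25, adjusted p = 0.2). In that list 11 of 15 members fell, with none higher.

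The start regions of PLK1, CCNB1 and HJURP are shown because promoters of this list share short letters. These genes are among the largest log2 falls in it with a RefSeq promoter holding a searched motif. Some promoters were left out of the choice by chromosome. Each line runs from 180 bases before to 20 after the RefSeq start in GRCh38.p14, 5′ to 3′ on the gene's strand, and capitals mark the letters TTTGAA of the cell cycle homology region (CHR) and CCAAT of the NF-Y box, searched on both strands.
PLK1 promoter, chr16:23678709-23678908, plus strand: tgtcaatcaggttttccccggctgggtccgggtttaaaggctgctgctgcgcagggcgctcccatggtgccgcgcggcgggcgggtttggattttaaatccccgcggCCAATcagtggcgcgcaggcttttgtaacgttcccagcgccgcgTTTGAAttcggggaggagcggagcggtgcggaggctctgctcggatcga
CCNB1 promoter, chr5:69166970-69167169, plus strand: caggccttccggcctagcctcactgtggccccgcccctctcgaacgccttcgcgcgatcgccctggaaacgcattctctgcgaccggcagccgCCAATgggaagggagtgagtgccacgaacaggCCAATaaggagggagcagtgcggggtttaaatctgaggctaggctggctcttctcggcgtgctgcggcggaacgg
HJURP promoter, chr2:233854516-233854715, minus strand: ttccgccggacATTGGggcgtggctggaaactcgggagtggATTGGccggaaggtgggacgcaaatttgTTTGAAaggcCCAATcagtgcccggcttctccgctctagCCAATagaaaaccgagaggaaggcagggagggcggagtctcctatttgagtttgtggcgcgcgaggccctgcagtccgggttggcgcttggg
The PLK1 window held its CHR letters 29 bases before the start and its CCAAT letters 73 bases before. CCNB1 had CCAAT at 87 and 55 bases before the start and no TTTGAA, and HJURP had TTTGAA at 111 bases and 4 NF-Y boxes. Over the 300-base windows from 250 bases before to 50 after the start, 21 of the 30 G2/M promoters matched held the CHR letters, against 9.10% of the 9912 tested genes with a RefSeq promoter and 15.4% of all 27305 promoters in the RefSeq table. The NF-Y box was in 83.3% of the G2/M promoters and in 37.3% of those of tested genes and 35.7% of all. Among genes of any kind, 26.2% of the promoters of genes that fell by at least 1 on the log2 scale held the CHR letters, against 6.98% for genes that rose by as much. A match describes the letters in the window and was not tested as a site.

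DNA replication genes fell nearly as uniformly: 34 of 40 fell and none rose (median -0.90). Beside the list counts in this paragraph, 26.8% of all tested genes fell and 23.2% rose. MCM10, which helps to start replication forks, fell from 21.1 and 22.1 to 5.67 and 8.47 RPKM (3.05-fold lower, limma adjusted p = 7.6e-05). DTL, which recruits CDT1 for destruction, fell from 16.8 and 14.6 to 4.32 and 6.42 RPKM and the licensing factor CDT1 itself from 49.4 and 46.8 to 16.4 and 19.5 (log2 changes -1.48 and -1.40). The sliding clamp PCNA, a p53 target too, was not called (248.8 and 247 RPKM with DMSO, 294 and 270.2 with the combination, adjusted p = 0.087, and 0.028 with the replicate block), nor was thymidine kinase TK1 (247 and 212 RPKM, then 248 and 214, adjusted p = 0.97). Of 13 E2F factors and pocket proteins 9 fell and 1 rose, the atypical repressor E2F7 (7.25 and 6.37 to 8.17 and 11.7 RPKM, log2 change 0.49), which lost its call without the second library of either group. Its partner E2F8 fell by 2.07, from 10.4 and 10.9 to 1.71 and 2.69 RPKM. In the list for homologous recombination and Fanconi repair 16 of 19 fell (median -0.77), and 8 did without the first combination library.

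The promoters of MCM10, DTL and CDT1 are shown for the E2F letters that the replication list shares. Ends and strand are as above, and capitals mark the searched letters of the E2F site, on either strand: TTTGGCG, for CDT1 also TTTCCCG, and in other promoters TTTCGCG as well.
MCM10 promoter, chr10:13161378-13161577, plus strand: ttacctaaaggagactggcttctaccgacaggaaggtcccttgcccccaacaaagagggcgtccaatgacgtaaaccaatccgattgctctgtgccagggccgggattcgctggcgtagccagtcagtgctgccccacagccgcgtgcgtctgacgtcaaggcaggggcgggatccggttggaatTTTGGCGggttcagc
DTL promoter, chr1:212035568-212035767, plus strand: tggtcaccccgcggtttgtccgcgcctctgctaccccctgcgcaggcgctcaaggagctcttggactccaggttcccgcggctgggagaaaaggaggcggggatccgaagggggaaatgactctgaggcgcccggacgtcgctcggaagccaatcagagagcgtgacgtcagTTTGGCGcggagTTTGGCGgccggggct
CDT1 promoter, chr16:88803609-88803808, plus strand: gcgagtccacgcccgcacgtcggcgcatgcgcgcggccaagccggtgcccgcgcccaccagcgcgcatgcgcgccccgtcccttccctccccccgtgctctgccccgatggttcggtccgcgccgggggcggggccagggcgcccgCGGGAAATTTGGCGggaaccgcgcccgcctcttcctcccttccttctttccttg
In MCM10 the letters began at base 6 of the transcribed part, and in DTL 8 bases before the start and at base 5 of the transcribed part. CDT1 had an adjoining pair, at 34 and 27 bases before the start, of which the first lies on the opposite strand. Of 35 replication promoters matched, 22 (62.9%) held E2F letters, against 11.9% of tested genes and 7.28% of all promoters in the RefSeq table. The CHR letters were in 2.86% of them. Among the promoters of the p53 target lists, E2F letters were in 11.5% and CHR letters in 7.69%, near the shares of tested genes.

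The cyclin-dependent kinase inhibitor CDKN2B (p15), known to respond to histone deacetylase inhibitors, rose from 1.03 and 0.986 to 5.45 and 4.21 RPKM (log2 change 1.81, limma adjusted p = 0.00015), beside 4.26 and 3.44 with Entinostat alone. CDKN1B (p27) fell from 11.9 and 11.4 to 4.50 and 5.31 RPKM (log2 change -1.17, adjusted p = 8.3e-05). Over 8 inhibitors of these kinases, p21 and p15 rose and 3 fell, of which 1 did without the first combination library, beside 23.2% and 26.8% of all tested genes.

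Among genes of the deacetylase machinery, 2 of 10 histone deacetylases rose (HDAC5 and HDAC11, of which HDAC5 alone did without the second DMSO library) and 2 fell (HDAC2 and HDAC7), close to the 23.2% and 26.8% of all tested genes. HDAC5 rose from 6.84 and 5.43 to 12.96 and 10.3 RPKM and HDAC7 fell from 6.91 and 7.85 to 2.49 and 3.88, both class IIa enzymes (log2 changes 0.87 and -1.12). Of 21 corepressor subunits 10 fell and 2 rose, RCOR2 among them (median -0.33), with none higher and 5 lower without the first combination library and 15 lower with the replicate block. SIN3A, the scaffold of the SIN3 complex, fell from 16.7 and 16.6 to 8.19 and 9.76 RPKM (log2 change -0.86, adjusted p = 5.1e-05).

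Neuronal and secretory granule genes, kept silent in epithelial cells by repressor complexes, rose in 10 of the 13 members that passed the level filter, and 13 more members were under it. As members could pass through the treated libraries where they are high, this count supports no direction. Beside CEND1 and VGF, the nerve growth factor receptor NGFR rose from 3.59 and 2.08 to 34.7 and 13.3 RPKM and the microtubule protein MAP2 from 0.468 and 0.342 to 5.21 and 3.04 (log2 changes 2.76 and 2.32). SYT11, a synaptotagmin, was at 0.0399 and 0.0827 and then 3.51 and 1.04 RPKM, and it lost its call without the first combination library, as did others: 6 members rose without it. With Entinostat alone NGFR was at 27.9 and 11.1 RPKM, MAP2 at 5.23 and 2.75 and SYT11 at 2.64 and 0.737, overlapping with the combination in all 3 genes. The short-chain dehydrogenase DHRS2, a known responder to deacetylase inhibitors, rose from 8.47 and 7.26 to 65.3 and 29.5 RPKM.

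Notch pathway genes rose in 10 of 16 cases with none lower, and in 6 without the first combination library. HEY1, a Notch effector and repressor, was near 0 with DMSO at 0.163 and 0.07697 RPKM and at 3.12 and 2.32 with the combination (log2 change 2.37, limma adjusted p = 0.00024). Immediate early factors rose in 12 of 19 cases with 1 lower (median 0.92), but in 5 without the first combination library and 6 without the second DMSO library. ATF3, a stress factor also induced by p53, rose from 6.47 and 5.54 to 34.8 and 23.1 RPKM and KLF2 from 12.4 and 11.9 to 66.2 and 30.9 (adjusted p = 7.7e-05 and 0.0016). JUN was at 7.77 and 5.09 and then 32.6 and 11.01 RPKM (log2 change 1.52, adjusted p = 0.023), a call that did not hold without either of those libraries. The chemokine CXCL8 rose 10.02-fold, from 0.444 and 0.372 to 5.04 and 3.14 RPKM. Zinc-responsive genes rose in 5 of 6 cases (median 1.40), with the metallothioneins MT1X (59.6 and 52.7 to 316 and 167 RPKM) and MT2A (872 and 876 to 3411 and 2218) and the zinc exporter SLC30A1 (4.78 and 5.57 to 14.5 and 14.9). Beside the list counts in this paragraph, 23.2% of all tested genes rose and 26.8% fell. Under the level filter were 2 Notch, 1 immediate early and 3 zinc-responsive members. As members near 0 with DMSO, such as HEY1, could pass it through the treated libraries, these counts support no direction.

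HOX genes fell more often than they rose, 11 against 4 of 21 (median -0.57), and 7 against 2 without the first combination library. Beside the list counts in this paragraph, 23.2% of all tested genes rose and 26.8% fell. HOXB8 led the HOX genes, and with Entinostat alone it was at 3.02 and 4.29 RPKM. Mesenchymal genes rose in 6 of 9 cases, and in 3 without either the first combination library or the second DMSO library. A further 5 members of that list were under the level filter. As members could pass it through the treated libraries where they are high, the mesenchymal count supports no direction. SNAI2, a repressor of epithelial genes, was at 0.0798 and 0.0188 RPKM with DMSO and 3.70 and 1.75 with the combination (log2 change 2.49, limma adjusted p = 0.00066). Of 16 epithelial identity genes 5 rose and 7 fell, and fewer fell without the first combination library or the second DMSO library. These mixed counts are not read as a result about the list. The keratin KRT19 rose from 503 and 450.0 to 2188 and 1356 RPKM and the epithelial transcription factor ELF3 from 17.9 and 14.03 to 58.1 and 53.3 (log2 changes 1.86 and 1.78), while the adhesion molecule EPCAM fell from 164 and 174 to 126 and 145 (log2 change -0.33, adjusted p = 0.012), a call lost without the first combination or the second DMSO library.

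As a check of identity, 8 epithelial markers summed to 2197 to 2391 RPKM with DMSO and 4179 to 4840 with the combination, with most of the difference in KRT19 and KRT8. EPCAM and CLDN7 were lower in both combination libraries than in either DMSO library. Of 15 markers of blood, vessel, stroma and liver, 13 were under 0.5 RPKM in each of the 4 libraries, PTPRC at 0 in all of them. The summed level of the 15 was 4.13 to 4.34 RPKM with DMSO and 17.1 to 21.9 with the combination, with most of it in ACTA2 (1.43 and 1.71 to 15.3 and 11.6 RPKM) and COL1A1 (2.52 and 2.23 to 5.801 and 4.95). ACTA2, smooth muscle actin, overlaps FAS in the genome, and with Nutlin-3A alone it was at 13.5 and 12.4 RPKM. In bulk RNA, fewer cells of a kind and less RNA per cell cannot be told apart.

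Of 30 tested members of the list for ribosome biogenesis and MYC targets 24 fell, with none higher (median -0.63). Of all tested genes 26.8% fell and 23.2% rose. At 20 to 100 RPKM in DMSO-treated p53-/- cells 52.0% fell (median -0.31), and the list was not matched for level. PPAN, a factor of large subunit maturation, fell from 30.5 and 32.4 to 11.4 and 14.7 RPKM (2.41-fold lower, limma adjusted p = 9.4e-05). MRTO4, which prepares the ribosomal stalk, fell from 54.9 and 64.04 to 22.7 and 29.8, and NIP7, which acts in large subunit assembly, from 30.6 and 33.8 to 11.6 and 16.8 (log2 change -1.18 for both). No library of these 3 genes overlapped between the groups. The MRTO4 start region is shown for its E-box, CACGTG in capitals, which begins at base 15 of the transcribed part; this promoter was chosen after its values were seen.
MRTO4 promoter, chr1:19251625-19251824, plus strand: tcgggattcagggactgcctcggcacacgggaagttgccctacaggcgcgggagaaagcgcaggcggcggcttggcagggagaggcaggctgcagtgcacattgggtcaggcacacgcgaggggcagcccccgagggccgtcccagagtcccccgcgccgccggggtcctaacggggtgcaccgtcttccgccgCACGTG
CACGTG was in 10 of 25 promoters of the list (40.0%), in 10.3% of those of tested genes and in 7.43% of all promoters in the RefSeq table. Among called genes of any kind, it was in 12.6% of promoters of those that fell and 8.0% of those that rose. By its name the list takes in MYC targets, so its share is not read as part of the drug response. Cytosolic ribosomal protein genes had a median log2 change of 0.32, with 7 of 20 higher and none lower, beside 23.2% and 26.8% of all tested genes. None was called without the first combination library or without the second DMSO library, and 19 were with the replicate block. After quantile normalization 1 rose and 1 fell, with a median of 0.04. Proteasome subunits fell in 19 of 26 cases (median -0.38), and in 12 without the first combination library. Of all tested genes 26.8% fell, and of those at 20 to 100 RPKM in DMSO-treated p53-/- cells 52.0% did (median -0.31). The list was not matched for level, so nothing is read from its count about the proteasome as such. PSMC6, an ATPase of the regulatory particle, fell from 52.2 and 50.2 to 25.7 and 32.6 RPKM (log2 change -0.81, adjusted p = 0.00031).

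**Figure D3:**
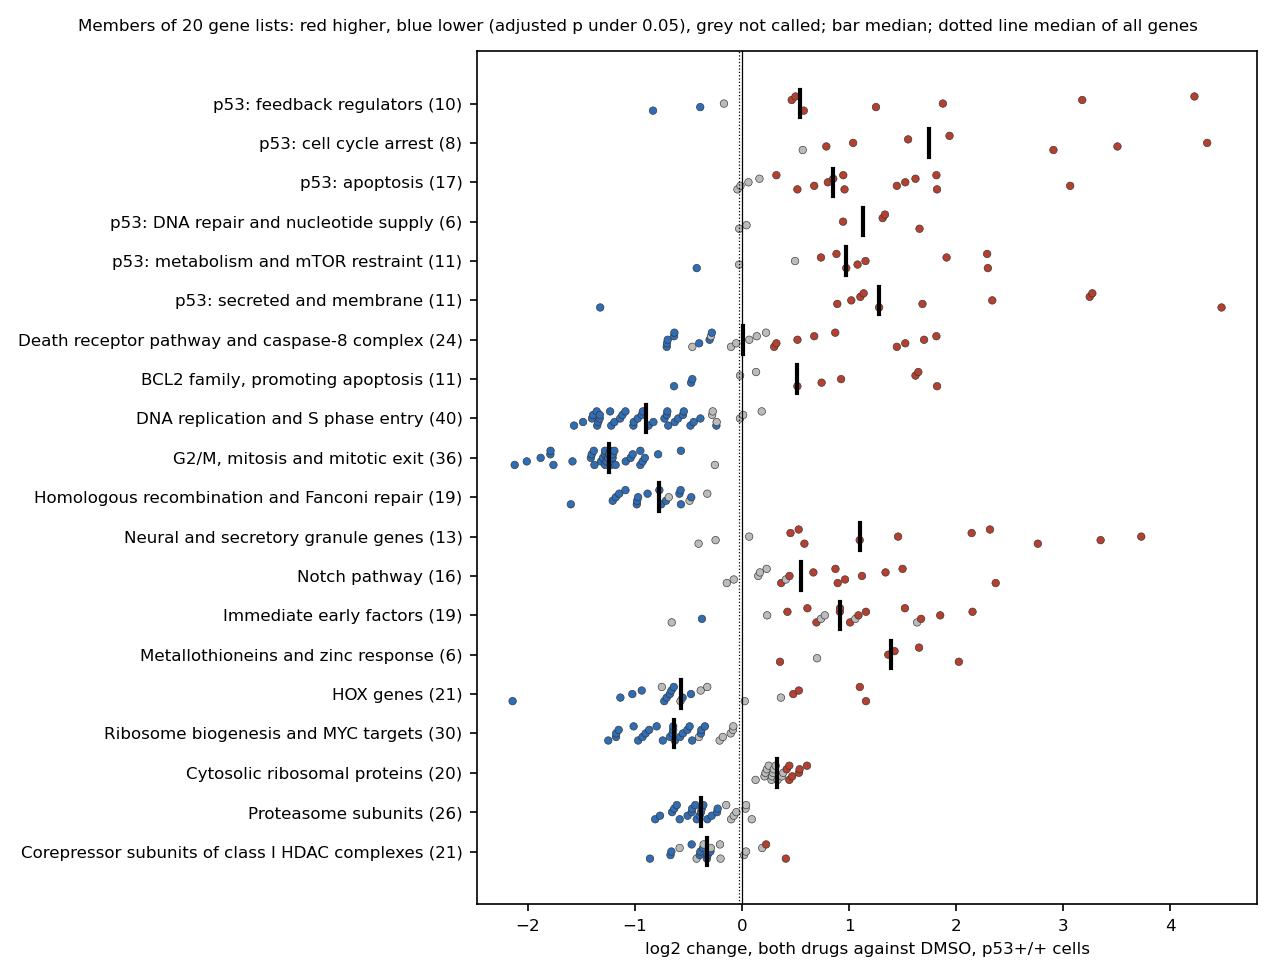
Log2 change between the combination and DMSO in p53+/+ cells (horizontal axis) for the tested members of 20 gene lists (rows, with the number tested); red members rose, blue members fell, grey ones were not called, bars mark medians and the dotted line the median of all genes, -0.03. The p53 lists lie to the right, the replication and G2/M lists to the left, and the death receptor list on both sides.

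The share of genes that rose or fell differed with the level of a gene. To keep the grouping apart from the DMSO libraries compared, genes were grouped by their mean RPKM in DMSO-treated p53-/- cells. Of 893 genes at 0.5 to 1 RPKM there, 45.4% rose and 2.35% fell in p53+/+ cells. At 1 to 5 RPKM 34.8% rose and 10.6% fell, at 5 to 20 RPKM 15.6% rose and 32.1% fell, and at 20 to 100 RPKM 6.57% rose and 52.0% fell. Of the 574 genes at 100 RPKM or more 10.1% rose and 32.2% fell, so the shares did not run one way over all levels. The 525 genes under 0.5 RPKM passed the level filter only through other groups, so nothing is read from the 69.3% of them that rose. The filter and the added 0.5 RPKM also favour rises over falls at 0.5 to 1 RPKM, and nothing is read from the shares there either. The count of genes at or above 0.5 RPKM went from 12195 and 12098 with DMSO to 12900 and 12832 with the combination. Both combination libraries reached 0.5 RPKM while both DMSO libraries stayed under it for 505 genes, and the reverse held for 40. Of 403 long noncoding RNAs tested 28.5% rose and 8.19% fell, against 23.0% and 28.1% of 11628 protein-coding genes. The 2 kinds were not matched for level, so nothing is read from these shares about long noncoding RNAs as such. RPKM are shares of a library, so a rise of many weak genes and a fall of strong ones are read relative to the library total.

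**Figure D4:**
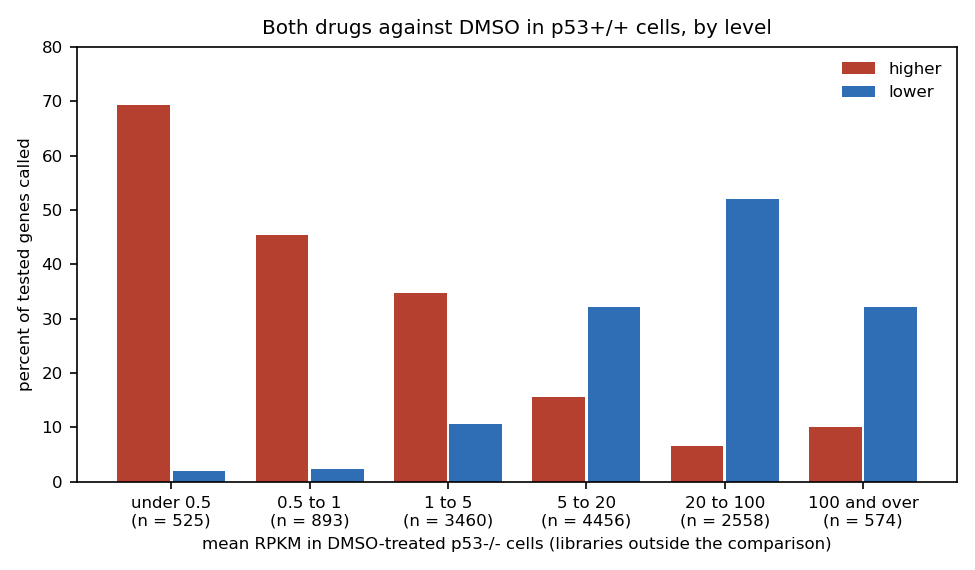
Percent of tested genes that rose (red) or fell (blue) between the combination and DMSO in p53+/+ cells (vertical axis, from 0), by their mean RPKM in DMSO-treated p53-/- cells (horizontal axis, with the number of genes). From 1 to 5 RPKM to 20 to 100 RPKM the share that rose goes from 34.8% to 6.57% and the share that fell from 10.6% to 52.0%, while at 100 RPKM and over they are 10.1% and 32.2%.

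Against Nutlin-3A alone, the combination differed in 4323 genes (34.7%), of which 2072 were higher (16.6%) and 2251 lower (18.1%). The count was 1698 without the first combination library, 1975 and 2804 without the first and the second Nutlin-3A library, and 6529 with the replicate block. More genes were higher than lower without the first combination library (924 and 774), without the first Nutlin-3A library (1059 and 916) and without the level filter (2669 and 2064). CTGF (log2 difference 4.33), CEND1 (3.76), VGF (3.39), CYP4F2 (2.85), DHRS2 (2.73) and NGFR (2.54) were the furthest above Nutlin-3A, of which NGFR lost its call without the first combination library. PLK3 was above it by 2.22 (limma adjusted p = 0.0012), and CDKN1A did not differ detectably (-0.03, 95% confidence interval -0.84 to 0.78, adjusted p = 0.95). The p53 lists differed from Nutlin-3A alone to unequal extents. Of the 17 apoptosis targets 12 were lower with both drugs and 2 higher (median -0.47), and of the 10 feedback regulators 5 were lower and 2 higher (median -0.45). In the arrest list 2 of 8 were lower and 1 higher (median -0.13), in the repair list 2 of 6 lower (median -0.42), in the metabolic list 4 of 11 lower (median -0.02) and in the secreted and membrane list 4 of 11 lower and 3 higher (median 0.03). Of the 36 G2/M genes 1 was higher and 4 were lower, counts that ran from 0 to 7 in either direction with single libraries left out. FAS was at 20.8 and 17.3 RPKM with Nutlin-3A (log2 difference of the combination -1.52, adjusted p = 0.00075), TP53I3 at 131 and 98.3 (-1.08, adjusted p = 0.0016) and BAX at 63.9 and 55.8 (-0.70, adjusted p = 0.00079). In all 3 genes every Nutlin-3A library lay above every combination library. PMAIP1 and PERP were the 2 that were higher with both drugs, PERP with its call lost without each of the 4 libraries in turn and PMAIP1 by 0.88 (adjusted p = 0.00065), and PMAIP1 also exceeded Entinostat alone, by 0.84. PDE4B, EREG, HOXA10-AS, MKX and HOXB8 were among the largest differences downwards, from -2.57 to -2.06.

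Against Entinostat alone, 1851 genes differed (14.8%), with 643 higher (5.16%) and 1208 lower (9.69%). The count was 729 without the first combination library, 1009 and 750 without the first and the second Entinostat library, and 3896 with the replicate block. Scaling by the median of ratios gave 754 higher and 933 lower, and quantile normalization 873 and 992. MDM2 (log2 difference 4.42), PLK3 (3.86), BTBD19 (3.34), TP53I3 (3.31) and GDF15 (3.18) were among the furthest above. All 36 G2/M genes tested were lower with both drugs than with Entinostat alone (median -1.14), as were 31 of 40 replication genes, with PCNA higher, a call lost without the first combination library or either Entinostat library. HJURP (-1.84), CDCA2 (-1.68), FBXO5 (-1.67), SGOL2 (-1.65), HMMR (-1.64) and CDC25A (-1.62) were the furthest below. Of the 13 neural genes none differed from Entinostat alone, and of the 21 HOX genes none did either, while with the replicate block 2 neural genes were higher, as were 2 HOX genes, and 5 HOX genes were lower. A missed threshold does not show that they were alike.

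Whether both drugs together exceeded the sum of each alone was asked as the log2 response to the combination minus the sum of the 2 single-drug responses, a comparison added after the data had been seen. No gene was called in limma (0 of 12466, 0%), and 587 had an unadjusted p under 0.05. With only 2 libraries a group the intervals, each of 1 gene and not adjusted, were wide. For PLK3 the single-drug changes summed to 2.61 and the combination gave 4.35, a departure of 1.74 (95% confidence interval 0.64 to 2.84, adjusted p = 0.7). BTBD19 departed by 1.53 (0.86 to 2.19, adjusted p = 0.34), MDM2 by 0.57 (0.22 to 0.93) and CTGF by 1.29 (-0.74 to 3.32). FAS departed by -1.08 (-1.74 to -0.41). NEAT1 (3.03 summed, 3.01 with both drugs) and MKX (-2.66 and -2.63) departed by -0.02 and 0.04. The median departure was 0.01 over the G2/M list and -0.19 over the apoptosis targets, against -0.03 over all genes. The 4 genes called without the second combination library were BTBD19 and LCE1F, above the sum, and APAF1 and IKBIP, below it. GALNT5 was called without the second Nutlin-3A library. As the doses inside the combination are not given separately in the labels, the single drugs may not have been dose-matched.

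In p53-/- cells the same combination changed many genes as well, 2136 higher (17.1%) and 1829 lower (14.7%). The response differed between the genotypes for 720 genes (5.78%), more positive in p53+/+ cells for 245 (1.97%) and more negative for 475 (3.81%). Leaving out any 1 of the 8 libraries moved this count: it was 1903 without the second combination library of p53+/+ cells, 164 to 304 without any other, and 2967 with the replicate block. Scaling by the median of ratios gave 302 more positive and 332 more negative, and quantile normalization 425 and 479. The response of MDM2 was 3.90 higher in p53+/+ cells on the log2 scale (14.6 and 14.7 RPKM with DMSO and 18.6 and 18.4 with the combination in p53-/- cells, limma adjusted p = 2e-07). PLK3 differed by 3.86 (adjusted p = 0.0026), and in p53-/- cells it was at 13.9 and 12.4 RPKM with DMSO and 21.8 and 15.8 with the combination. CYP4F2 (3.45), BTBD19 (3.10) and TP53I3 (3.08) followed, and only CYP4F2 among these 5 lost its call with a library left out, the second DMSO library of p53+/+ cells. TNFRSF10B differed by 1.46 (adjusted p = 0.0006), and in p53-/- cells it was at 30.3 and 29.3 RPKM with DMSO and 31.5 and 27.8 with the combination. CDKN1A rose in p53-/- cells too (23.7 and 14.1 to 100.2 and 54.5 RPKM), and its difference of 1.52 was not called (adjusted p = 0.11; 0.00021 with the replicate block). CTGF rose to 54.3 and 16.8 RPKM from 2.704 and 2.27 without p53, and the difference of 1.44 was not called (adjusted p = 0.37).

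Many cell cycle genes responded differently in the genotypes. Of the 36 G2/M genes 29 responded more negatively in p53+/+ cells, as did 19 of 40 replication genes, and none more positively, against 3.81% of tested genes. The G2/M count was 9 to 17 without each of 7 of the 8 libraries (the second combination library of p53+/+ cells being the exception), and the replication count 6 to 12 without each of 5 of them and 32 with the replicate block. HJURP, for example, averaged 29.04 RPKM with DMSO and 29.04 with the combination in p53-/- cells, a difference of -1.79 between the responses (adjusted p = 0.016) that lost its call without each of 3 libraries in turn. CCNB1 (-1.35, adjusted p = 0.0057) and CDC25A (-1.43, adjusted p = 0.0067) kept theirs without each library. DEPDC1 (-1.82), HMMR (-1.82), SGOL2 (-1.81) and MKX (-1.77) were also among the 6 furthest in this direction, and of these MKX kept its call without each library. RGS2, a regulator of G protein signalling, rose in p53-/- cells (2.66 and 2.42 to 14.6 and 9.77 RPKM) and in p53+/+ cells was at 36.1 and 18.4 with DMSO and 33.6 and 22.03 with the combination (difference -1.96, adjusted p = 0.047). That call was lost without each of 7 of the 8 libraries in turn. None of the 13 neural genes and only HOXA13 of the 21 HOX genes were called as different between genotypes. The HOXA13 call was lost without each of 6 libraries in turn. With the replicate block 1 HOX gene was more positive and 2 were more negative. A missed threshold does not show that the responses were alike. No p53 target list held a member called with a more negative response in p53+/+ cells.

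**Figure D5:**
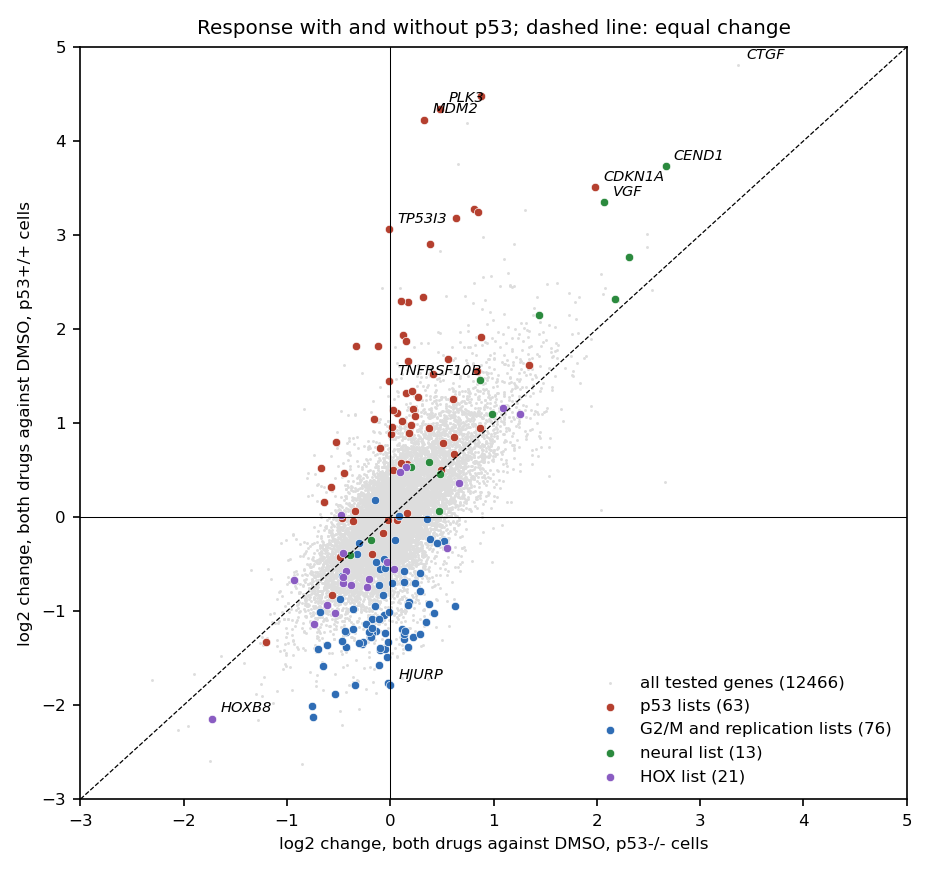
Log2 change between the combination and DMSO in p53-/- cells (horizontal axis) and p53+/+ cells (vertical axis) for all tested genes (grey) and for members of the p53, cell cycle, neural and HOX lists (coloured); the dashed line marks equal change. PLK3 and MDM2 lie far above the line, CEND1, VGF and CTGF are high in both genotypes, and HJURP lies below the line at no change in p53-/- cells.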

How the data were processed

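RNA of the 16 libraries was prepared with a stranded mRNA kit, per the labels' protocols, and values were deposited as RPKM per gene, the authors' only unit. The submitters' processing notes name Bowtie2, Partek and hg19. Versions, read filters and use of strand: not given in the sources used here. RPKM hold no read counts, so no interval from depth is given. The table's row of alignments per library was left out of all tests.

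Values were tested as log2(RPKM + 0.5) with limma 3.58.1 in R 4.3.3, as 8 group means over the 16 libraries (8 residual and 4.09 prior degrees of freedom, trended prior), with Benjamini-Hochberg adjustment over 12466 genes of mean RPKM at least 0.5. Named genes were PLK3, CTGF, MDM2, CDKN1A, CFLAR and TNFRSF10B, then the 15 largest called changes in each direction (6 in the other comparisons) at a mean RPKM of at least 1, without overlap between the groups except for the genotype difference, up to 5 called members per list by size of change, and members not called. BAX, FAS, TNFRSF10A, KITLG, BID, XIAP, TRAF2, FOXM1, E2F7, EPCAM and other called genes outside this rule were chosen after their values were seen. Some genes that the rule names are not reported here. Members and lists were chosen with earlier results of these data known.

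Replicate numbers come from the labels. Deviations from the group mean correlated between same-numbered libraries in all 28 pairs of groups (r across genes 0.27 to 0.78, median 0.43), so the numbers were taken as pairs and a fit with the replicate block is given where it changes a result. Other alternatives were pseudocounts of 0.1 and 1, no level filter or one of 1 RPKM, median of ratios scaling, quantile normalization, a prior without trend, fits on fewer libraries, and each library left out in turn, where the lone library is assumed to vary like the other groups. The departure from the sum of single drugs and its alternatives were added after seeing the data. Promoter sequences come from the RefSeq table for GRCh38.p14.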

Additional observations from a re-analysis of the deposited data

Results flagged for a closer look

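The test of the difference between the p53+/+ and p53-/- responses to the combination called 720 genes. Towards a more positive response with p53, the log2 differences were 3.90 for MDM2, 3.86 for PLK3, 3.45 for CYP4F2, 3.10 for BTBD19, 3.08 for TP53I3 and 1.46 for TNFRSF10B. All of these except CYP4F2 kept their call without each of the 8 libraries.

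Towards a more negative response with p53, the differences were -1.96 for RGS2, -1.82 for DEPDC1 (kinetochore and spindle) and for HMMR (spindle), -1.81 for SGOL2 (centromere cohesion), -1.79 for HJURP and -1.77 for MKX. MKX kept its call without each of the 8 libraries. RGS2, DEPDC1 and SGOL2 lost theirs without each of 7 libraries in turn, HMMR without each of 6 and HJURP without each of 3. DEPDC1, HMMR, SGOL2 and HJURP each kept their call without the second combination library of p53+/+ cells.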

How the results depend on the processing

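Among the single-gene results followed through the alternatives, no called log2 change reversed its sign. The balance of higher and lower genes turned in some runs, both over all genes and in the replication list against Nutlin-3A. Without the first combination library 4144 genes differed from DMSO, and leaving out each of the 4 libraries in turn gave 4144 to 6306. The replicate block gave 7981 there, 2967 for the difference between genotypes, 6529 against Nutlin-3A alone, 3896 against Entinostat alone and 0 for the departure from the sum of the single drugs (1402 at an unadjusted p under 0.05). Of the single-gene calls that the text gives, the block changed those named there (CTGF, CASP8, MCL1, PCNA and CDKN1A) and no other. Leaving out single libraries gave 164 to 1903 genes between genotypes, 1698 to 4818 against Nutlin-3A, 729 to 2425 against Entinostat and 0 to 4 for the departure. Fitting the 8 p53+/+ libraries alone gave 1144 against Entinostat, and without the level filter 25 genes departed from the sum. The cause of these moves was not tested. Quantile normalization changed the sign of the median log2 change of the lists for cholesterol synthesis (-0.12 to 0.04), EGFR family (0.12 to -0.04), ERK feedback (-0.00 to 0.16) and epithelial identity (0.13 to -0.05). With 2 libraries a group, small changes were least well resolved.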

Other observations

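Lists that the text has not described moved less uniformly between the combination and DMSO in p53+/+ cells, beside 23.2% of all tested genes that rose and 26.8% that fell. Interferon response genes rose in 10 of 19 cases with 1 lower, and in 6 without the first combination library or 3 without the second DMSO library. Genes of MHC class I presentation rose in 6 of 11 cases with 1 lower, and NF-kB targets in 5 of 11 with 2 lower. Targets of the unfolded protein response of the endoplasmic reticulum rose in 6 of 14 cases, but in 1 without the first combination library, 3 without the first DMSO library and 2 without the second. Heat shock genes fell in 6 of 13 cases with none higher, and in 2 without the second DMSO library. Autophagy and lysosome genes rose in 6 of 19 cases with none lower, in 3 without the first combination library and in 2 without the second DMSO library. The integrated stress response had 5 higher and 6 lower of 17.

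Among chromatin and transcription genes, 7 of 11 for Polycomb and DNA methylation fell with none higher, and 4 did without the first combination library or the second DMSO library. Of 10 histone genes outside the S phase clusters 5 rose and 1 fell, with 1 higher without either of those libraries and 9 higher with the replicate block. Of 10 elongation genes 5 fell and 1 rose, and 3 fell without either of those libraries. All 3 called members among 6 mismatch repair genes fell. MYC network factors had 4 higher and 3 lower of 11, Wnt targets 4 higher and none lower of 11, the EGFR family 3 and 2 of 8, ERK feedback 3 and 1 of 13, hypoxia and glycolysis 5 and 4 of 18, and cholesterol synthesis 3 and 3 of 24. No hypothesis was tested on these lists.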
